A study of Mus musculus with 8 samples.

Results

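The cytosolic ribosomal protein genes were read in mouse oocytes, blastocysts and implantation sites labelled knockout (KO) or wild type (WT) for connexin 43. Genes were taken by symbol from the array's annotation: Rpl or Rps followed by a digit, together with Rplp0, Rplp1 and Rplp2, without the S6 kinases, binding proteins, Rpl7l genes and pseudogenes. The rule found 47 genes, 25 of the large and 22 of the small subunit, of 18193 genes that had a probe set of their own. They were read by 100 of the 45101 probe sets of the array. A further 110 probe sets were annotated to a ribosomal protein gene together with other genes and were kept apart. They were the only readers of 31 ribosomal protein symbols, Rpl5, Rpl3, Rpl10 and Rplp1 among them, which were therefore not analysed here. Of the 100 probe sets, 92 for 45 genes lay in the brighter part of the array by mean signal and were tested. Rpl3l, a muscle paralog of Rpl3, and Rps16 had no probe set in that part.

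A ribosome consists of a large subunit, which joins amino acids, and a small subunit, which reads the mRNA. Each holds a set of proteins made in nearly equal amounts, so their mRNAs usually move together, and many of these mRNAs start with a run of C and T that couples their translation to growth signals through mTOR. The full-grown oocyte lives on ribosomes it has stored and degrades much of its mRNA on maturation, while the embryo makes new ribosomes after its own genome is switched on. Several ribosomal proteins have a second copy in the genome with its own pattern of tissues.

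The series held 8 arrays from mice, in 2 genotypes that the labels call KO and WT. The gene concerned is Gja1, which encodes the gap junction protein connexin 43. MII oocytes, the mature eggs, had 1 KO and 1 WT array, blastocysts had 2 KO and 2 WT arrays, and implantation sites had 1 KO and 1 WT array. According to the title the depletion was directed to the oocyte; the driver, the genotype of the fathers, strain, age and any pooling are not given in the sources used here. Nothing states whether the blastocyst replicates came from separate animals, so their spread may be technical. Signals were Affymetrix MAS5 intensities on which each array's trimmed mean was 500, and every value is therefore relative to the other transcripts of that array. In such bulk samples, fewer cells of a type and less RNA per cell cannot be told apart.

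The targeted gene did not check every label. The brightest Gja1 probe set had 150 in KO and 126 in WT oocytes, values below the brightest Bacillus control of their own arrays. In blastocysts it had 375 and 553 in KO, and 9835 and 574 in WT. The array labelled WT replicate 2 thus sat with the KO arrays. The blastocyst median, the blastocyst calls and Rpl37 are given with and without it. The overlap counts and most single blastocyst differences are given only with it. At implantation sites Gja1 had 28105 in KO and 44493 in WT. The Bacillus controls, 27 probe sets for bacterial RNA, served as a background level on the assumption, which no source states, that none was added. Their highest signal was 588 in KO and 171 in WT oocytes, 535 and 560 in KO and 322 and 345 in WT blastocysts, and 131 in KO and 174 in WT implantation sites. The ratio of 3′ to 5′ Actb probe sets, a measure of RNA length, also differed between arrays. It was 6.68 in KO and 33.4 in WT oocytes, 25.7 and 39.0 in KO and 69.3 and 69.1 in WT blastocysts, and 27.9 in KO and 21.2 in WT implantation sites. The same ratio for Gapdh was 2.41 in KO and 10.1 in WT oocytes, and 7.46 in KO and 7.21 in WT implantation sites. In blastocysts it was 11.2 and 11.8 in KO and 7.27 and 7.71 in WT, the opposite direction to Actb. Oocyte markers dominated the oocyte arrays, trophectoderm markers the blastocyst arrays, and decidual and uterine markers were present at implantation sites (12 of 13 above the Bacillus level in KO, 13 of 13 in WT), which thus held maternal tissue in both genotypes.

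The ribosomal protein genes differed widely by stage. The median signal of the 45 genes was 1172 in KO and 1573 in WT oocytes. It was 12955 and 15705 in KO and 19079 and 14922 in WT blastocysts, and 12831 in KO and 9825 in WT implantation sites. All 6 later arrays lay above both oocyte arrays. The genes took 0.357% and 0.506% of all signal on the KO and WT oocyte arrays, and between 2.89% and 4.17% on the later arrays.

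**Figure D1:**
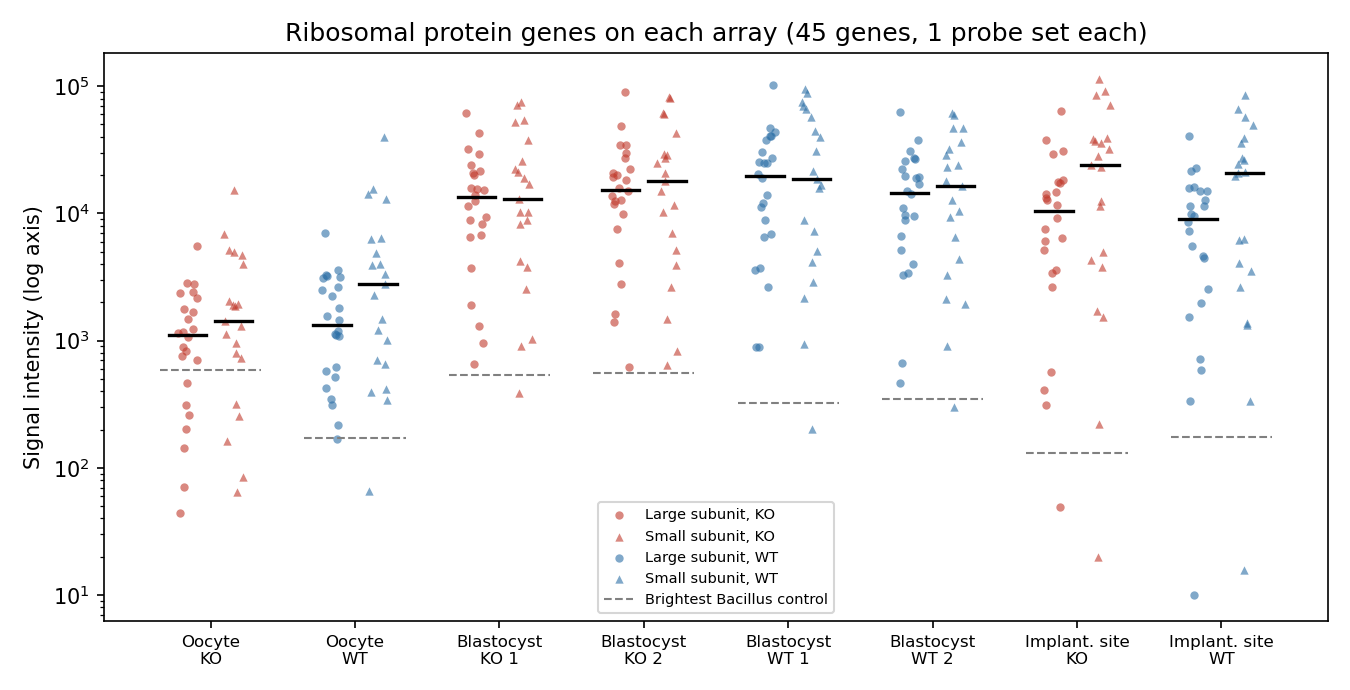
Signal intensity (log axis) of the 45 ribosomal protein genes on each array, 1 point per gene from its brightest probe set, with black bars for the median of each subunit and dashed lines for the brightest Bacillus control. The median over genes was 1172 and 1573 on the oocyte arrays and between 9825 and 19079 on the later ones.

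Between oocytes and blastocysts, 81 of 92 ribosomal protein probe sets rose and 1 fell at an adjusted p under 0.05 in limma, fitted to all 8 arrays with terms for stage and genotype. Over all 22519 probe sets tested, 25.2% rose and 15.6% fell. The median change was 2.99 on the log2 scale (7.95-fold), against 0.47 over all probe sets. Of the large subunit 40 of 43 probe sets rose, with a median of 3.56, and of the small subunit 41 of 49, with a median of 2.77; the difference between the subunits was not tested. By gene, read from its brightest probe set, 43 of 45 rose.

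The rise of Rps10, a protein of the small subunit's head, is shown as an example. Its probe set 1434854_a_at had 85.3 in KO and 343 in WT oocytes, 8896 and 11597 in KO and 15970 and 10444 in WT blastocysts, and 5010 in KO and 3504 in WT implantation sites. The change to blastocysts was 6.06 (SE 0.45, limma adjusted p = 2.2e-06), although the KO oocyte value lay below that array's Bacillus level. One Rpl7 probe set rose by 5.46 (SE 0.44) and the brightest Rpl27 probe set by 5.25 (SE 0.47). Rpl19 rose by 5.11, Rps26 by 4.97, one Rpl35 probe set by 4.94 and Rpl14 by 4.50. In these 6 too the KO oocyte value lay under that level and the WT value above its own. The sizes are therefore uncertain and have no order. The plain Rpl27 probe set, above the Bacillus level on both oocyte arrays, rose by 1.48 (SE 0.28). Rpl19 had 201 in KO and 617 in WT oocytes, against values from 11040 to 13758 in the 4 blastocyst arrays. A second Rps10 probe set and one for Rpl37a were under the Bacillus level in both oocyte arrays, so their rises of at least 10.3-fold and at least 4.21-fold are lower bounds.

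The first bases are shown because a C and T run there marks growth-regulated ribosomal protein mRNAs. The stretches below run from 20 bases before to 10 bases after the start of transcription. They are read 5′ to 3′ from the first start that RefSeq lists on mouse build GRCm38.p6. Capitals mark the longest unbroken run of C and T that touched the 5 bases on either side of the start. The genes are Rps10, Rpl35, Rpl27a, Rpl19 and Rps4x, beside 5 that are described singly below (Rpl39, Rpl39l, Rps27, Rpl22l1, Rpl37). All were picked after their values were seen. By the brightest probe set, all but Rps27 rose to blastocysts at an adjusted p under 0.05 in limma.
Rps10, chr17:27635235-27635264, minus strand: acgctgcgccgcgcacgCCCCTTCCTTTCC
Rpl35, chr2:39005122-39005151, minus strand: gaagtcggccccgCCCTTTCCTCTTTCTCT
Rpl27a, chr7:109519175-109519204, plus strand: cgcgagacttcgtgagCTCCTCCCTTTTCC
Rpl19, chr11:98026690-98026719, plus strand: ccacgtgaccaaacgCCCTCactgcgcatg
Rps4x, chrX:102189382-102189411, minus strand: aaagtctgaggctgggcggagcaacccagg
Rpl39, chrX:37085213-37085242, minus strand: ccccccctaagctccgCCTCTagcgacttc
Rpl39l, chr16:10170208-10170237, plus strand: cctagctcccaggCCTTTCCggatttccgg
Rps27, chr3:90213639-90213668, minus strand: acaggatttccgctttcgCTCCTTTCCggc
Rpl22l1, chr3:28805488-28805517, plus strand: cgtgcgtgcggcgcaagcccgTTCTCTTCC
Rpl37, chr15:5116593-5116622, plus strand: gaagtagtttcctgggcggaagcttatcca
The run differed in length among genes that rose, 20 bases in Rpl27a and 13 in Rps10 but 5 in Rpl19 and 3 in Rps4x. Those of Rpl27a, Rpl35 and Rpl22l1 run past the end of the stretch, and those of Rps4x and Rpl37 are left in lower case. The runs of Rpl19 and Rpl39l end before the start, so they lie outside the mRNA that begins there. The relation of run length to the stage change was not tested.
Promoters were found for 41 of the 47 genes. A run of at least 8 C or T that touched the 5 bases on either side of the start was present in 17 of them (41.5%), against 9.30% of 27025 promoters of all genes. The 250 bases before the start held CCGGAAG on either strand, the core bound by ETS-family factors, in 16 of 41 (39.0%), against 7.05% of all promoters. AAGATGG, the core of the YY1 motif, was in 3 of 41 (7.32%), against 4.53%. These are matches of letters and not measured sites.

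Some of the copies departed from the common stage pattern. Rpl39l, a copy of Rpl39 known from mouse testis, had 2858 in KO and 1573 in WT oocytes, 20882 and 22324 in KO and 24716 and 22373 in WT blastocysts, and 49.2 in KO and 10.1 in WT implantation sites. It was thus bright on all 4 blastocyst arrays and under the Bacillus level at both implantation sites. The rise to blastocysts was 3.41 (SE 0.45). The fall to implantation sites was at least 149-fold, a lower bound set by the Bacillus level. On the signals as read, limma gave adjusted p = 5.27e-07 for this fall, and the bound was not tested. Rpl39l was also the only one of 92 probe sets that fell between oocytes and implantation sites. In that contrast 74 rose (19.7% of all probe sets rose and 14% fell). The median change was 2.95, against 0.03 over all. Rps10 (4.61, SE 0.52), one Rpl7 probe set (4.55, SE 0.50), Rps25 (4.49, SE 0.32) and Rps4x (4.46, SE 0.51) were the highest estimates there, with KO oocyte values under the Bacillus level for Rps10 and Rpl7.

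Rps4l, a copy of the X-linked Rps4x, ran a similar course at lower signal. It had 64.5 in KO and 65.9 in WT oocytes, 385 and 648 in KO and 938 and 906 in WT blastocysts, and 20.02 in KO and 15.7 in WT implantation sites. Both oocyte and both implantation arrays lay under the Bacillus level, as did blastocyst KO replicate 1. The rise to blastocysts was at least 2.14-fold and the fall after them at least 4.50-fold. On the signals as read, limma gave adjusted p = 0.0039 for the rise and 0.000496 for the fall, and the bounds were not tested. Rps4x itself had 725 in KO and 2764 in WT oocytes, values from 18829 to 39942 in blastocysts, and 35568 in KO and 27161 in WT implantation sites.

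Rps27 and its copy Rps27l, a target of p53, were the genes whose brightest probe set did not rise to blastocysts. Rps27 changed by -0.31 (SE 0.58). It had 796 in KO and 414 in WT oocytes, and 915 and 825 in KO and 201 and 300 in WT blastocysts. Both WT blastocyst values lay under the Bacillus level, so the size of this change is uncertain. For Rps27l, the brightest of 3 probe sets had 4735 in KO and 6367 in WT oocytes, 8298 and 6956 in KO and 7338 and 6486 in WT blastocysts, and 3816 in KO and 2658 in WT implantation sites. That change to blastocysts was 0.40 (SE 0.30), and the later fall was 1.18 in size (SE 0.30, limma adjusted p = 0.011). Of its other probe sets 1423254_x_at rose by 1.00 (SE 0.35, adjusted p = 0.038) and 1450925_a_at changed by 0.12. Rpl22l1, which is held down by Rpl22 in mouse tissues, rose by 1.94 (SE 0.48) to blastocysts.

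Rpl22, an RNA-binding protein of the large subunit, gave opposite readings. Its brightest probe set 1453118_s_at rose by 3.46 (SE 0.33) to blastocysts. Probe set 1448398_s_at had 2703 in KO and 2902 in WT oocytes, 382 and 486 in KO and 717 and 708 in WT blastocysts, and 1703 in KO and 1986 in WT implantation sites. It fell by 2.34 (SE 0.34, limma adjusted p = 0.000207) and was the single probe set of 92 to do so, then rose by 1.73 (SE 0.34) to implantation sites. Which transcripts either probe set reads was not tested.

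**Figure D2:**
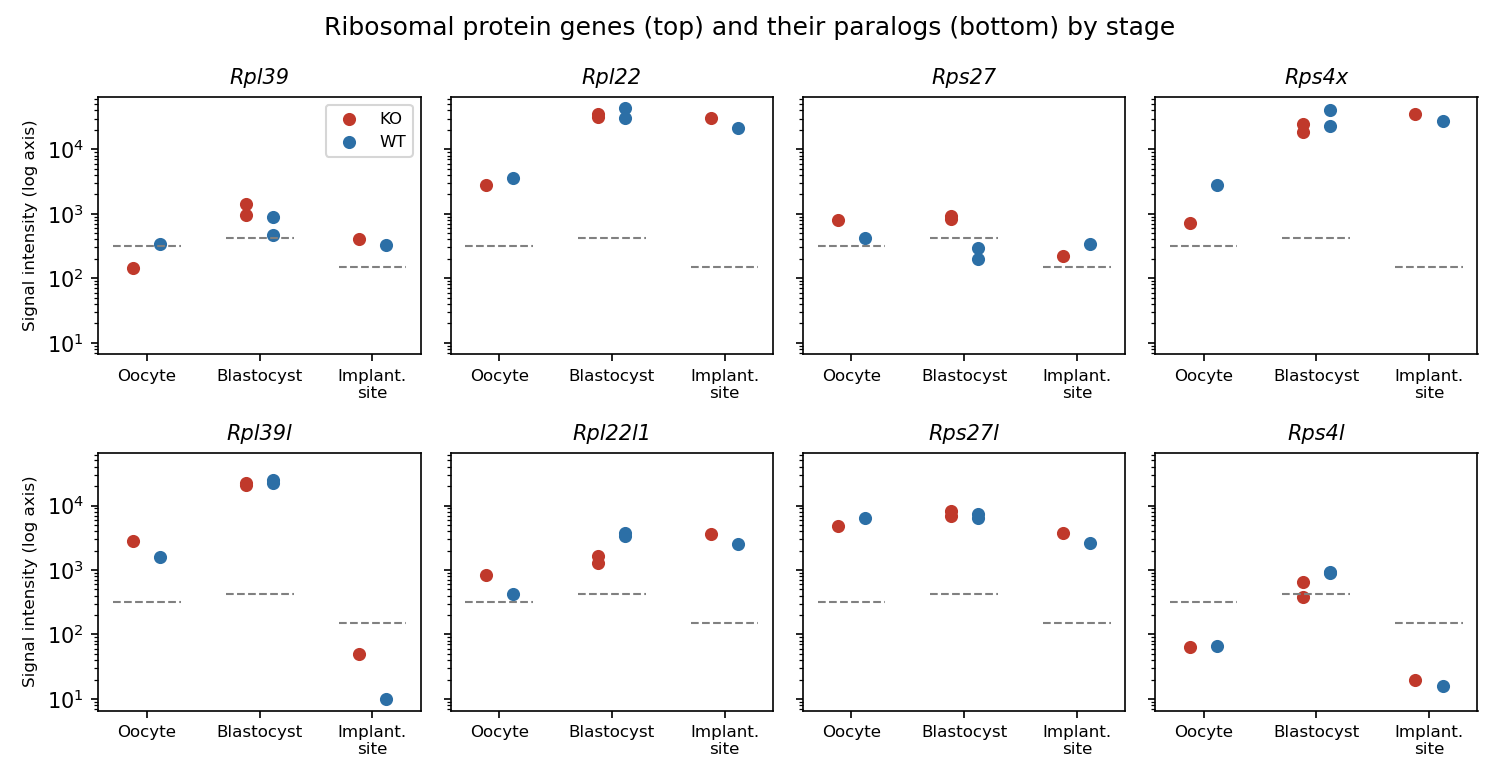
Signal intensity (log axis) by stage for 4 ribosomal protein genes (top) and their copies (bottom), 1 point per array, KO left of WT, with dashed lines at the geometric mean of the stage's brightest Bacillus controls. Rpl39l and Rps4l lie above the line in most blastocyst arrays and below it at both implantation sites.

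The upstream stretches of Rpl39l and Rpl39 are shown because their stage courses differed most within a pair. They cover 250 bases before the start on GRCm38.p6, with CCGGAAG in capitals, which occurred at 2 places for Rpl39l and at none for Rpl39.
Rpl39l, chr16:10169978-10170227, plus strand: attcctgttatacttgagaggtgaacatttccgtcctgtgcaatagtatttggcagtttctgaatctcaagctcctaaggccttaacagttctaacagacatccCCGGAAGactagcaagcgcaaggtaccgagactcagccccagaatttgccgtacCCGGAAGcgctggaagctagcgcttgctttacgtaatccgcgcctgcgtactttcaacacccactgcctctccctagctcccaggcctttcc
Rpl39, chrX:37085223-37085472, minus strand: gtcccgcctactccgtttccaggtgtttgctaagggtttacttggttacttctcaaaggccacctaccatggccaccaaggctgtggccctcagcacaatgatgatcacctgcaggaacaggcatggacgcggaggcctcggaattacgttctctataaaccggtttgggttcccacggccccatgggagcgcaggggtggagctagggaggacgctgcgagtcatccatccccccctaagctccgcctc
Rpl39 had 143 in KO and 345 in WT oocytes, 955 and 1405 in KO and 893 and 461 in WT blastocysts, and 411 in KO and 333 in WT implantation sites. Its rise to blastocysts was 1.96 (SE 0.56, limma adjusted p = 0.015), and its later change of -1.22 did not pass the test.

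From blastocysts to implantation sites 7 of 92 probe sets rose and 22 fell (limma, adjusted p under 0.05), where 13.1% of all probe sets rose and 17.8% fell. The median was -0.44, against -0.31 over all, with 1 implantation array per genotype. Without the WT implantation array it was -0.03, against -0.43 over all, so that it then lay above the median of all probe sets. Without the KO implantation array it was -0.73, against -0.10 over all. The large subunit had 2 that rose and 13 that fell, and the small subunit 5 and 9. With arrays scaled to a common median the same contrast gave 7 that rose and 5 that fell with a median of -0.08, and without the trend in limma 11 calls in all. Calls numbered 18 without the WT implantation array, 19 without the KO implantation array and 19 without blastocyst KO replicate 2.

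Rps25, a small subunit protein used by some viral RNAs to start translation, rose. It had 3817 and 3946 in KO and 4159 and 3283 in WT blastocysts, against 23065 in KO and 21268 in WT implantation sites, a change of 2.55 (SE 0.27, limma adjusted p = 7.6e-05). Rps9 rose by 2.05 and 1.16 with its 2 suffixed probe sets, Rps29 by 1.37 with 1 of 3 and Rpl41 by 1.20 with 1 of 4. Probe set 1455195_at of Rps24 rose by 3.31 (SE 0.50, adjusted p = 0.000666), while the brightest of the gene's other 5 fell by 1.02. Rpl37 fell by 4.11 with its only probe set, 1438291_x_at (SE 0.63, limma adjusted p = 0.000697). Falls also passed for Rpl38, which favours the translation of certain Hox mRNAs in mouse embryos (-1.76), and for Rpl11, which binds Mdm2 as part of the 5S particle (-1.74). Rpl35 fell with 4 of its 6 probe sets, by up to 1.65. Rpl38 had 42665 and 48730 in KO and 46564 and 37446 in WT blastocysts, against 14658 in KO and 11352 in WT implantation sites. Probe set 1447563_at of Rps3 fell by 4.15 (SE 0.87), but its blastocyst values were 3213 and 3222 in KO and 559 and 12057 in WT, and the gene's brightest probe set changed by 0.33.

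In oocytes the KO array read lower for most ribosomal protein genes. There was 1 array per genotype, so these differences have no test and no replicate check. Of 45 genes 38 had a lower signal in KO and 7 a higher one, with a median of -0.82 on the log2 scale, against 0.09 over 11746 genes. At least 2-fold lower were 21 genes (12.3% of all genes), and at least 2-fold higher were 2 (23.9% of all genes). The median remained below 0 under every scaling tried, at -0.70 after quantile normalization and -1.37 with a common median. In 9 of the 21 genes the KO signal was at or below the Bacillus level of its array, so that only a bound on the fold can be given for them. In 33 of the 45 genes each signal exceeded the Bacillus level of its own array, 588 in KO and 171 in WT. Of these 33, 26 were lower in KO, and 12 of the 26 differed by 2-fold or more. The median of the 33 was -0.43. Of all 5029 genes past the same cut 2682 were lower in KO, 297 of them by 2-fold or more. The median of the 5029 was -0.06.

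Genes were named by the size of their difference where the higher of the KO and WT signals exceeded the Bacillus level of both oocyte arrays. Rpl27, whose KO value lay under that level, had 262 in KO and 1187 in WT oocytes, at least 2.02-fold lower in KO. Its plain probe set 1416099_at, above that level on both arrays, had 1738 in KO and 1855 in WT, a difference of -0.09. Rps19, the gene most often mutated in human Diamond-Blackfan anaemia, had 161 in KO, also under the Bacillus level, and 699 in WT. Its bound was at least 1.19-fold. Rps4x had 725 in KO and 2764 in WT, a difference of -1.93, and Rps14 had 1955 in KO and 6269 in WT, a difference of -1.68. These 4 are spread over the dim and the bright end of the range. Rpl27a had 1155 in KO and 3296 in WT, Rpl7a 1225 in KO and 3207 in WT, Rps20 5012 in KO and 14215 in WT, and Rps29 15225 in KO and 39641 in WT. Rpl19 with 201 in KO and 617 in WT, and Rps26 with 255 in KO and 655 in WT, had KO values under the Bacillus level. Rplp0, the base of the stalk that recruits elongation factors, had 467 in KO and 1120 in WT (at least 1.91-fold lower in KO), and Rplp2, a tip protein of the stalk, had 2161 in KO and 2631 in WT.

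The 7 genes with a higher signal in KO oocytes were Rpl11, Rpl8, Rpl22l1, Rps27, Rpl39l, Rpl37a and Rps15. Rpl11 had 702 in KO and 313 in WT, a difference of 1.16, and Rpl8, at the peptidyl transferase centre, had 1172 in KO and 574 in WT, a difference of 1.03. Rpl22l1 had 828 in KO and 424 in WT, and Rps27 had 796 in KO and 414 in WT. For Rpl11, Rpl8, Rpl22l1 and Rps27 the WT value exceeded the WT Bacillus level of 171 but not the KO level of 588. The part of the higher KO background in these differences was not tested. For Rpl39l the values were 2858 in KO and 1573 in WT, for Rpl37a 1766 in KO and 1081 in WT, and for Rps15 1878 in KO and 1216 in WT. Of the genes mutated in human Diamond-Blackfan anaemia 7 were measured, and 6 (85.7%, all but Rpl11) were lower in KO oocytes, close to the 84.4% of all 45 genes. Only 4 of the 7 were above the Bacillus level on both arrays, 3 of them lower in KO.

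Both subunits were lower, the small one by more. Of the large subunit 19 of 24 genes were lower in KO oocytes with a median of -0.63, and of the small subunit 19 of 21 with a median of -1.18. The difference between subunits was not tested. Genes that share the C and T start without being ribosomal proteins, mostly elongation and initiation factors, were lower in 12 of 16 cases (75%) with a median of -0.37, where 78.0% of the 3881 probe sets at least as bright in oocytes as the median ribosomal protein gene were lower, with a median of -0.40. Eef1a1, the main elongation factor, had 4396 in KO and 9382 in WT oocytes.

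The kind of probe set moved with the oocyte difference. A plain _at probe set is designed to match 1 transcript, an _a_at several transcripts of 1 gene, and an _s_at or _x_at can match further sequences, which in this family include many processed pseudogenes. Of 69 suffixed probe sets 55 were lower in KO oocytes with a median of -0.65. Of all 5822 suffixed probe sets tested 3008 were lower, with a median of -0.04. Of 23 plain probe sets 13 were lower with a median of -0.06, against 7238 of all 16697 plain ones with a median of 0.19. Among 10 genes with both kinds, the suffixed median lay below the plain one in 8.

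Signal level moved with it too. Of the plain probe sets only 6 were above the Bacillus level on both oocyte arrays, 3 lower and 3 higher in KO, with a median of -0.02, while of the suffixed 50 were, 42 lower, with a median of -0.56. The genes where the kinds stood farthest apart were Rps9, Rps18, Rps3 and Rps24. For Rps18 the plain probe set 1421837_at had 378 in KO and 28.6 in WT oocytes, both under the Bacillus level, while 1455572_x_at had 5135 in KO and 13073 in WT. For Rps9 the plain probe set 1426958_at, also under that level on both, had 131 in KO and 20.8 in WT, and 1434624_x_at had 1294 in KO and 2286 in WT. Bright probe sets as a whole read lower in the KO oocytes: the 3881 at least as bright there as the median ribosomal protein gene had a median of -0.40, and the 23 ribosomal protein genes of that brightness had -0.93. The 3′ to 5′ Actb ratio was lower on the KO array too, 6.68 against 33.4 in WT. The part of probe kind, signal level and RNA length in the oocyte difference was not tested.

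**Figure D3:**
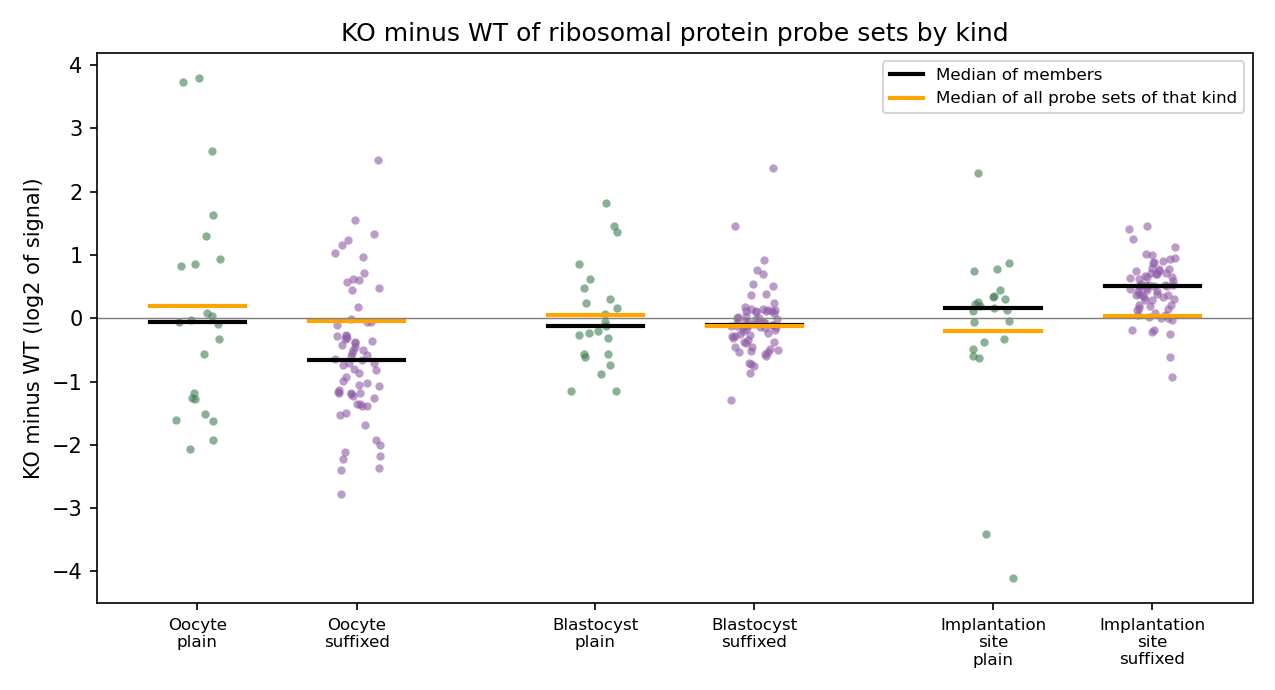
KO minus WT difference (log2 of signal) for each of the 92 ribosomal protein probe sets, split into 23 plain and 69 suffixed, at each stage, with black bars for their median and orange bars for the median of all tested probe sets of that kind. In oocytes the suffixed median is -0.65 and the plain one -0.06, while in blastocysts both lie near 0 and at implantation sites both lie above it.

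In blastocysts, the stage with replicates, no ribosomal protein probe set passed the test. With limma on the 4 blastocyst arrays 0 of 92 were called, where 0.0266% of all probe sets rose and 0% fell. At an unadjusted p under 0.05, 4 of the 92 were higher and 3 lower in KO, where 8.44% of all probe sets were higher and 6.32% lower. The median over genes was -0.13, with 32 of 45 lower in KO, against -0.01 over all genes and -0.24 over probe sets as bright as the median ribosomal protein gene there. Without WT replicate 1 the median was 0.028, and without the array labelled WT replicate 2 it was -0.46. In simulated data this fit recovered 31.3% of 4-fold changes and 1.49% of 2-fold changes, so that most 2-fold differences would go uncalled.

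The groups overlapped for most probe sets. Both KO arrays lay below both WT arrays for 18 of 92 probe sets, against 24.3% of all, and above for 11, against 24.2% of all. The replicates of ribosomal protein genes lay close, since none of 45 genes was 2-fold apart between the KO arrays and 1 between the WT arrays, against 17.5% and 25.1% of all genes. The first WT array was the higher of its pair in 40 of 45 genes, against 6428 of all 11746. The first KO array was the lower of its pair in 40 of 45 genes, against 5844 of all 11746.

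Rpl37, a small zinc-binding protein of the large subunit, came nearest to a call. Its only probe set, 1438291_x_at, is of the kind that can match further sequences, and what else it reads was not tested. Rpl37 had 14078 and 19987 in KO blastocysts, against 2623 and 3975 in WT, a difference of 2.38 (SE 0.33, limma adjusted p = 0.0968). Both KO values were above both WT values. Without the array labelled WT replicate 2 the adjusted p was 0.0155, without any other array it was at least 0.141, and among the brightest 30% of probe sets it was 0.0493. In oocytes Rpl37 had 1489 in KO and 1805 in WT, and at implantation sites 310 in KO and 590 in WT, so the blastocyst direction was not that of the other stages.

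Rpl13a, which has a second role in silencing inflammatory mRNAs in human cells, was split among its 4 probe sets. Probe set 1417608_a_at had 6947 and 8992 in KO blastocysts, against 3152 and 2620 in WT (1.46, SE 0.29, adjusted p = 0.133, limma). The brightest, 1455485_x_at, had 61405 and 90557 in KO, against 102502 and 63105 in WT, and 1433928_a_at had 3829 and 5605 in KO, against 9505 and 6070 in WT. One reading was thus higher in both KO arrays and another lower, and the brightest overlapped.

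Rps27 had 915 and 825 in KO blastocysts, against 201 and 300 in WT, where both values lay under the Bacillus level. KO was thus at least 2.61-fold higher, a bound that was not tested. For Rps27 limma gave adjusted p = 0.181 on the signals as read. Its copy Rps27l had 8298 and 6956 in KO, against 7338 and 6486 in WT. Rps15 was higher in both KO arrays by 0.91, Rpl39 by 0.85, one Rpl41 probe set by 0.63 and one for Rps18 by 0.51, with adjusted p from 0.250 upward. A plain Rps9 probe set was under the Bacillus level on all 4 arrays.

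Rpl22l1 had the lowest estimate among the genes with lower signal. It had 1291 and 1627 in KO blastocysts, against 3728 and 3385 in WT (-1.29, SE 0.30, limma adjusted p = 0.160), with no overlap. Rpl22 itself had 31917 and 34730 in KO, against 43324 and 30795 in WT with its brightest probe set, which overlapped. Rpl27a had 6799 and 12688 in KO, against 25022 and 17017 in WT (-1.15, SE 0.38, adjusted p = 0.254, limma). Rps19 had 2537 and 2623 in KO, against 5096 and 4372 in WT, a difference of -0.87 (SE 0.28, adjusted p = 0.238, limma). Below both WT arrays were also Rps4l by -0.89, Rps2, near the mRNA entry, by -0.75, Rps6, the substrate of the S6 kinases, by -0.74, and one probe set each of Rpl22 (-0.73) and Rpl13a (-0.71).

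Without the array labelled WT replicate 2, 2.42% of all probe sets rose and 0.124% fell, and the fit called 3 of the 92: Rpl37, Rps2 with -1.26 (limma adjusted p = 0.0349) and probe set 1447563_at of Rps3 with 2.53 (adjusted p = 0.0228). The single remaining WT array was then assumed to vary like the KO pair. The 2 genotypes also differed in blood and immune markers. Their summed signal was 11477 and 16526 in KO and 2097 and 5686 in WT blastocysts. Above the Bacillus level were 3 and 4 of 11 in KO and 2 and 3 in WT. Much of the sum was Csf1r, with 6134 and 11937 in KO and 593 and 3881 in WT. Inner cell mass markers summed to 20853 and 22808 in KO and 43572 and 32600 in WT, with 9 of 11 lower in KO. In KO blastocysts the 3′ to 5′ ratio was lower for Actb and higher for Gapdh. The part of these markers and ratios in the values above was not tested.

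**Figure D4:**
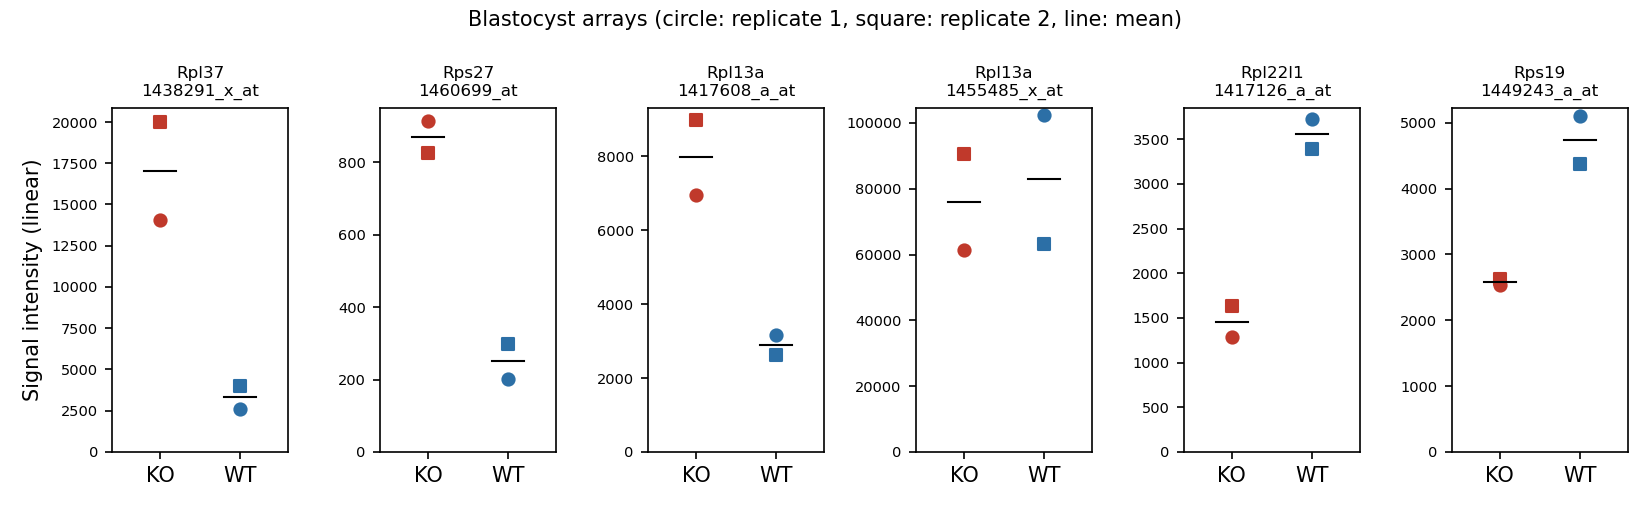
Signal intensity (linear axis from 0, own scale per panel) on the 4 blastocyst arrays for 6 probe sets, KO left of WT, circles for replicate 1, squares for replicate 2 and lines for the arithmetic mean. Rpl37, Rps27 and one Rpl13a probe set are higher in both KO arrays, Rpl22l1 and Rps19 are lower, and the brightest Rpl13a probe set overlaps.

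A single KO term fitted to all 8 arrays, with stage as the other term, gave 0 calls among the 92 probe sets and 0% among all (limma, adjusted p under 0.05). At an unadjusted p under 0.05, 4 of the 92 were higher and 3 lower in KO, where 3.67% of all probe sets were higher and 3.15% lower. In simulated data this fit recovered 46.3% of 4-fold and 4.48% of 2-fold changes, and its single KO term averages the stages.

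At implantation sites the order was turned round. Of 45 genes 39 had a higher signal in KO and 6 a lower one, with a median of 0.38, against -0.13 over all genes. The median stayed above 0 under the other scalings, at 0.074 after quantile normalization and 0.79 with a common median. No gene was at least 2-fold lower (15.9% of all genes), and 2 had at least 2-fold higher signals (6.12% of all genes): Rps24, and Rpl39l, whose values both lay under the Bacillus level. The stage again had 1 array per genotype and so no test. Probe sets at least as bright as the median ribosomal protein gene at this stage had a median of 0.42, and the 23 ribosomal protein genes of that brightness had 0.43, a distance of 0.010. In oocytes the same distance was -0.53.

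Rps24, which is spliced differently between tissues, had 12583 in KO and 6279 in WT implantation sites, a difference of 1.00. Rpl39l had 49.2 in KO and 10.1 in WT, so that no fold can be given. Rpl35, near the exit of the peptide tunnel, had 29174 in KO and 15838 in WT, Rps26, at the mRNA exit, 11348 in KO and 6228 in WT, Rpl11 3410 in KO and 1960 in WT, and Rpl14 2624 in KO and 1538 in WT. The lower genes were led by Rpl37 with 310 in KO and 590 in WT, a difference of -0.93. They also held Rps27 with 222 in KO and 337 in WT, and Rplp0 with 7540 in KO and 9825 in WT, while Rplp2 had 18235 in KO and 11439 in WT. The median was 0.36 for the large and 0.39 for the small subunit. Suffixed probe sets were higher in KO in 61 of 69 cases and plain ones in 14 of 23.

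Set side by side, 33 of 45 ribosomal protein genes (73.3%) were lower in KO oocytes and higher in KO implantation sites, and 1 (2.22%) had the reverse. Over all genes the shares were 24.5% and 34.6%. The gene with the reverse was Rps27. Each share rests on 1 array per genotype and stage. Bright probe sets as a whole also went both ways. Of those at least as bright in oocytes as the median ribosomal protein gene, 3029 of 3881 were lower in KO oocytes. At implantation sites 594 of the 697 chosen in the same way there were higher in KO. The share of bright probe sets with both directions was not counted.

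Genes that control ribosomal protein synthesis were read from a list of regulators such as mTOR pathway members and Myc. From oocytes to blastocysts 9 of 18 rose and 3 fell in the limma fit, where 26.7% of all genes rose and 18.4% fell, and none of the 18 was called for KO in blastocysts. In oocytes 14 of 18 (77.8%) were lower in KO, against 46.7% of all genes and 78.0% of the bright probe sets, and 11 of the 18 were above the Bacillus level on both arrays. Larp1, which binds the C and T start of these mRNAs, had 89.9 in KO and 72.5 in WT oocytes, 1718 and 1766 in KO and 3469 and 2952 in WT blastocysts, and 1577 in KO and 3027 in WT implantation sites. Rpsa and Fau, ribosomal proteins whose symbols the rule does not take, both rose to blastocysts. Rpsa had 1274 in KO and 1895 in WT oocytes, 38071 and 39643 in KO and 44021 and 31225 in WT blastocysts, and 23098 in KO and 20741 in WT implantation sites, the course of most of the 45 genes.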

How the data were processed

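Arrays were Affymetrix mouse 430 2.0 chips hybridised with biotin-labelled RNA, and values are the signal intensity per probe set that the authors deposited, made with MAS5 per the submitters' processing notes. Its version and detection calls were not used here. In the deposited table each array's trimmed mean (2% off each end) was 500. Gene names came from the platform annotation: 34945 probe sets had 1 symbol, 932 several and 9160 none, and 64 were controls. Values were taken as log2, and probe sets in the upper 50% by mean log2 signal over the 8 arrays were kept (22519, from a mean signal of 151). Groups followed the labels. limma 3.58.1 in R 4.3.3 was used with an intensity trend and Benjamini-Hochberg adjustment over all 22519, two-sided. The blastocyst fit used 4 arrays, and the stage and common KO fits used 8 with additive terms; the lone arrays of oocytes and implantation sites share the spread of the others there. A gene was represented by its probe set with the highest mean. SE is limma's. Fits were tested on simulated data, in which the stage fit recovered 28.4% of 4-fold changes. The number of arrays limits the precision.

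Replicate numbers did not pair the blastocyst arrays: their deviations correlated at 0.00695 over 22519 probe sets. Named were the largest differences in each direction per contrast (8 for stages and blastocyst groups without overlap, 10 for oocytes and implantation sites where the higher signal exceeded the Bacillus level of both arrays), the stalk, 5S and second-copy genes, and 4 genes in which kinds of probe sets differed; other genes were picked after their values were seen. The genes, lists and tests were chosen with earlier results of these data known, and the series' title names ribosomal genes, so no direction here is independent evidence. Sequences came from RefSeq (GRCm38.p6, 7 genes with several starts). Alternatives covered scaling, filter, pseudocount, gene summaries, the trend, a replicate block and leaving out arrays; counting shared probe sets and splitting oocytes by level were added after seeing the data. Python 3.11.15 and matplotlib 3.10.9 made the summaries and figures.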

Additional observations from a re-analysis of the deposited data

Results flagged for a closer look

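KO and WT signals of the ribosomal protein genes differed in opposite directions in oocytes and implantation sites, on 1 array each. The median of the 45 genes was -0.82 in oocytes and 0.38 at implantation sites, so the oocyte difference lay 1.20 lower on the log2 scale (-1.20). Rpl27a differed by -2.26 between the stages, Rps26 by -2.22 and Rpl27 by -2.89, each lower in KO oocytes and higher in KO implantation sites, and for Rps26 and Rpl27 the KO oocyte value lay under the Bacillus level. Rps27 differed by 1.54 the other way. For the plain Rpl27 probe set KO minus WT was -0.09 in oocytes and 0.20 at implantation sites. With 1 array per genotype at both stages, none of these differences was tested. At implantation sites the 23 brighter genes lay 0.010 from the median of equally bright probe sets, against -0.53 in oocytes, and the median was 0.074 after quantile normalization.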

How the results depend on the processing

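The rise from oocytes to blastocysts (82 calls, 1 of them a fall) kept its size under the other settings, apart from changes of the unit counted. The common KO term gave 0 calls in all 18 alternatives, in a fit that recovered 4.48% of simulated 2-fold changes. Counted by gene there were 43 calls from oocytes to blastocysts with 1 probe set per gene and 43 with the mean of a gene's probe sets, and 167 with shared probe sets; leaving out 1 array gave 74 to 82. From oocytes to implantation sites 75 calls became 39 and 40 by gene and 161 with shared probe sets, and 67 to 77 with an array left out. From blastocysts to implantation sites 29 calls became 12 with a common median, 11 without the trend, 16 and 16 by gene and 49 with shared probe sets, and 18 to 34 with an array left out. In blastocysts the 0 calls for KO became 1 with the brightest 30% of probe sets (Rpl37) and 2 with a replicate block (Rpl37 with adjusted p = 0.00377, Rpl13a with 0.0428), where 1.67% of all probe sets rose and 0.209% fell, although the replicate numbers do not pair the arrays, and 0 to 3 with an array left out. The blastocyst median of -0.13 was -0.39 with a common median and ran from -0.46 to 0.028 with an array left out. The oocyte median of -0.82 was -1.37 with a common median, -0.57 over all probe sets, -0.54 with the mean of a gene's probe sets, -0.094 with plain probe sets and -1.18 for the small subunit. The implantation median of 0.38 was 0.074 after quantile normalization and 0.79 with a common median. A common median moves every gene of a stage by the same amount, so the distance from the median of all genes, -0.91 in oocytes and 0.51 at implantation sites, is kept. The cause of the other changes was not tested.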
